A study of Homo sapiens with 8 samples.

Results

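Expression of 35 secretory granule and synaptic vesicle genes was examined in 8 human cancer cell lines. The genes were taken by symbol from a list that covers granins, prohormone processing, vesicle release, granule membrane proteins, monoamine handling, peptide hormones and the adhesion gene NCAM1. All 35 were found among the 58202 Ensembl identifiers of the files. RNA was sequenced from 1 library per line after 48 hours of culture in plates. Lung lines were H146 (small cell lung cancer), H522 (non-small cell) and H661 (large cell), and the endometrial lines were KLE (adenocarcinoma) and HEC59 (carcinoma). H716 came from a colorectal adenocarcinoma of the cecum, 1321N1 from an astrocytoma, labelled glial, and COV318 from a serous epithelial carcinoma of the ovary. All 8 lines express the receptor tyrosine kinase ERBB4. The series was designed around 4 lines sensitive to ibrutinib and 4 without a response, but the labels do not say which is which, so no comparison by response was made.

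Neuroendocrine cells and neurons store peptides in dense-core granules and small transmitters in synaptic vesicles, and release both when calcium enters the cell. Granins fill the granule and help it form, prohormone convertases and carboxypeptidase E cut and trim the peptide precursors inside it, and SNARE proteins with their calcium sensors fuse the vesicle with the cell membrane. Several of these genes serve in pathology as markers of neuroendocrine tumours, of which small cell lung cancer is one.

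Levels are given as FPKM, fragments scaled by transcript length and by mapped fragments. Between 12205 and 13300 genes per line reached an FPKM of 1, the value taken as detection. Depth is unknown because the files hold no counts, and none of 10 housekeeping genes was listed at 0 in any line. Tissue markers were uneven. The lung gene NKX2-1 reached 11.2 in H661 and was at most 0.0204 in the other lung lines, and the surfactant genes SFTPA1 and SFTPA2 had a value of 0 throughout. Of 7 intestinal markers 3 were detected in H716, with the cadherin CDH17 at 137 but CDX1 and KRT20 at 0, and VIL1 was higher in H146 (8.74) than in H716 (1.07). The Mullerian factor PAX8 was at 45.7 in KLE, 185 in HEC59 and 72.6 in COV318, but also at 5.84 in 1321N1 and 1.68 in H522. Of 8 Mullerian markers, 7 were detected in KLE, 6 in HEC59 and 5 in COV318, against 1 or 2 in each other line. HOXA10 was highest in H716 at 48.5, and ESR1 was at most 0.883 in any line. WT1 was at 12.4 in H522 and 0.408 in HEC59. Of 7 glial markers only GFAP was detected in 1321N1, at 3.10, with S100B, OLIG1, AQP4 and SOX10 at 0, whereas H146 had AQP4 at 4.46 and GFAP at 1.57. Of 7 neuronal markers, 2 to 4 were detected per line. The most, 4, were in 1321N1. RBFOX3 was at most 0.686 in any line and NEFM at most 0.103, whereas MAP2 was highest in H661 and H522, at 328 and 281. TUBB3 was detected in every line and highest in 1321N1 at 69.1. NEFL was highest in 1321N1 at 7.36, GAD1 in HEC59 at 8.98 and SLC17A7 in H661 at 1.41. The part of these differences in the results below was not tested.

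Every one of the 35 genes had its highest level in H146 or in H716. H146 was highest for 24 genes and H716 for 11. Among the 30 members that passed the filter (2 or more lines with an FPKM of at least 1), the counts were 20 and 10, while H146 was the highest line for 11.5% of the 15650 genes of the whole table that passed and H716 for 13.6%. H146 and H716 were the 2 highest lines for 22 members, 21 of which passed the filter, against 4.5% of genes tested. Many members pass the filter through these lines themselves, as 18 pass without H146 and 20 without H716, so the shares describe the members and support nothing further. With 1 library per line these ranks have no replicate check, and more cells that express a gene cannot be told apart from more RNA per cell.

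**Figure D1:**
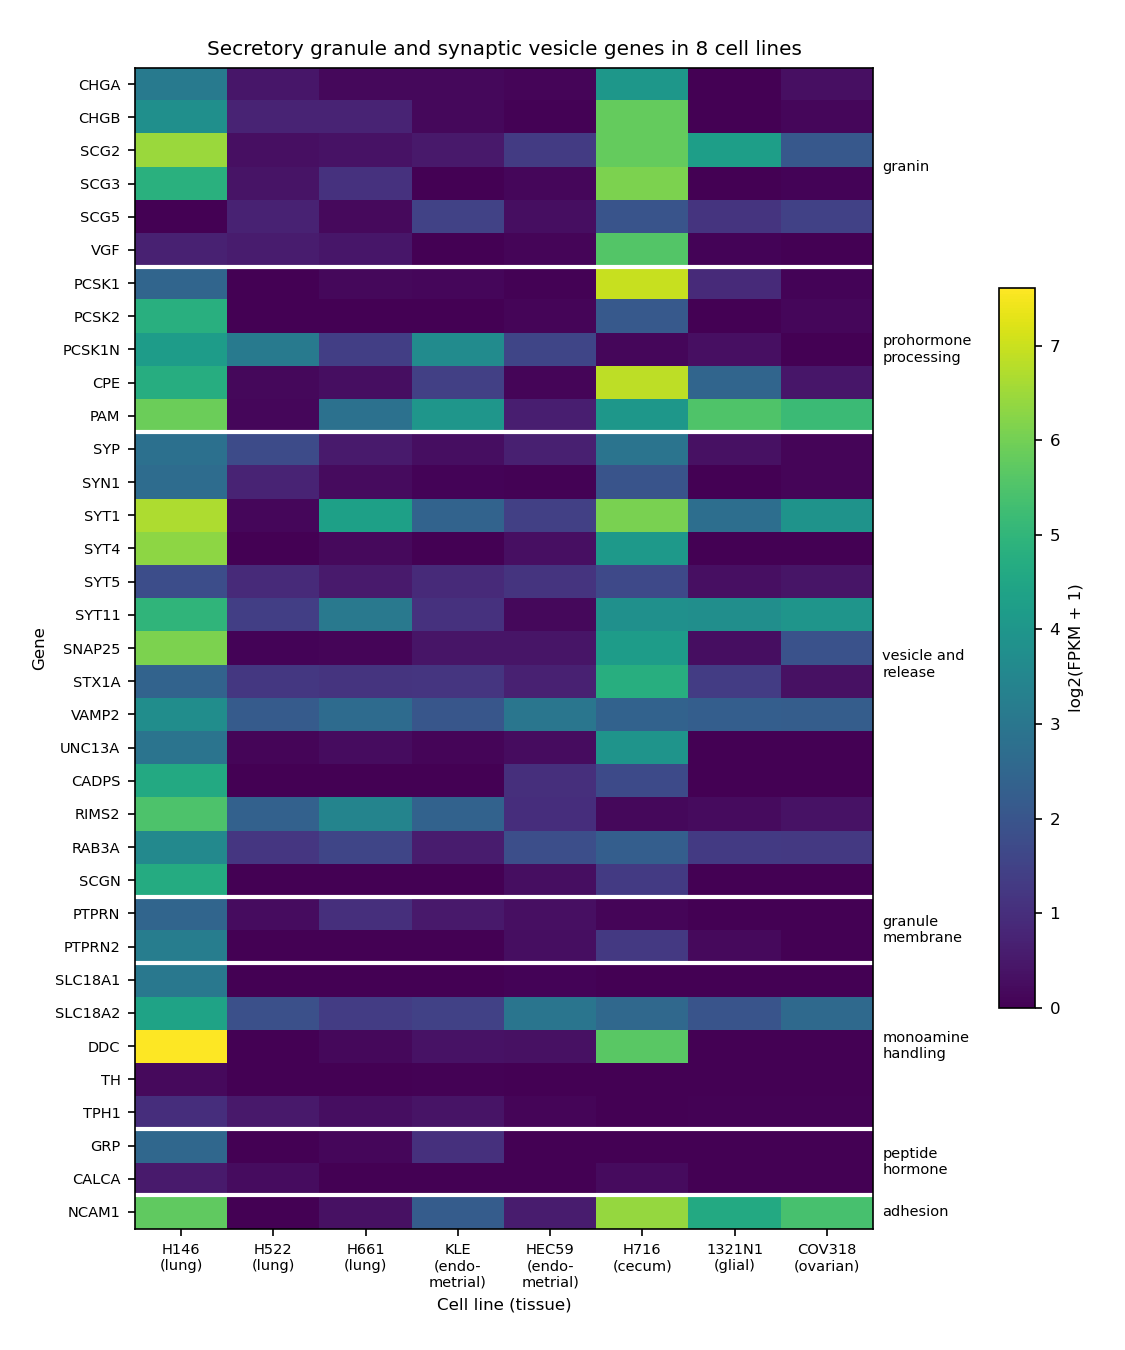
Level of each of the 35 genes as log2(FPKM + 1) (colour scale) in each cell line (columns, tissue in brackets), with genes grouped by role (rows). Bright cells lie mainly in the H146 and H716 columns, with further signal for SCG2, PAM, SYT1, SYT11 and NCAM1 in 1321N1 and COV318.

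Detection also differed between lines. H146 had 31 of the 35 members at an FPKM of 1 or more and H716 had 27, against 12 in KLE, 11 in H661, 11 in 1321N1, 10 in COV318, and 8 each in H522 and HEC59. Of all genes tested, 79.7% were detected in H146 and 75.2% in H716, against 80.3% in KLE, 79% in H661, 79.9% in 1321N1, 79.9% in COV318, 77.6% in H522 and 78.7% in HEC59. The median level of the members was 3.73 in H146 and 2.58 in H716 on the log2(FPKM + 1) scale, and 0.10 to 0.41 in the other lines. For the genes tested as a whole the median was 2.57 in H146, 2.66 in H716 and 2.60 to 2.91 elsewhere. In H716 the members were thus near all genes tested in detection and median, and in H146 above them. In the remaining lines the members lay far below all genes tested. The 35 include 5 members that did not pass the filter, unlike the genes tested.

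A gene was called high in a line when its log2(FPKM + 1) lay 2 or more above the median of the other 7 lines. In H146 25 members were high, 24 of them among the 30 that passed the filter, while 5.04% of genes tested were high in that line. In H716 16 members were high, 15 of them among the 30, against 4.76% of genes tested. With a pseudocount of 5 in place of 1 the count was 12 in H146 and 12 in H716. Elsewhere 1321N1 had 3 high members (SCG2, CPE and NCAM1; 4.89% of genes tested), H661 had RIMS2 (3.58%), KLE had PCSK1N (4.72%), COV318 had NCAM1 (4.12%), and H522 (2.6%) and HEC59 (3.64%) had none. High in both H146 and H716 were 14 members, 11 were high in H146 and not in H716, and STX1A and VGF were high in H716 and not in H146. The 8 members high in neither were SCG5, PAM, SYT5, SYT11, VAMP2, TH, TPH1 and CALCA. The shares of all genes tested that were high in both lines, in either alone or in neither were not counted. This split therefore describes the members only, and VGF, SLC18A1, TH, TPH1 and CALCA did not pass the filter.

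**Figure D2:**
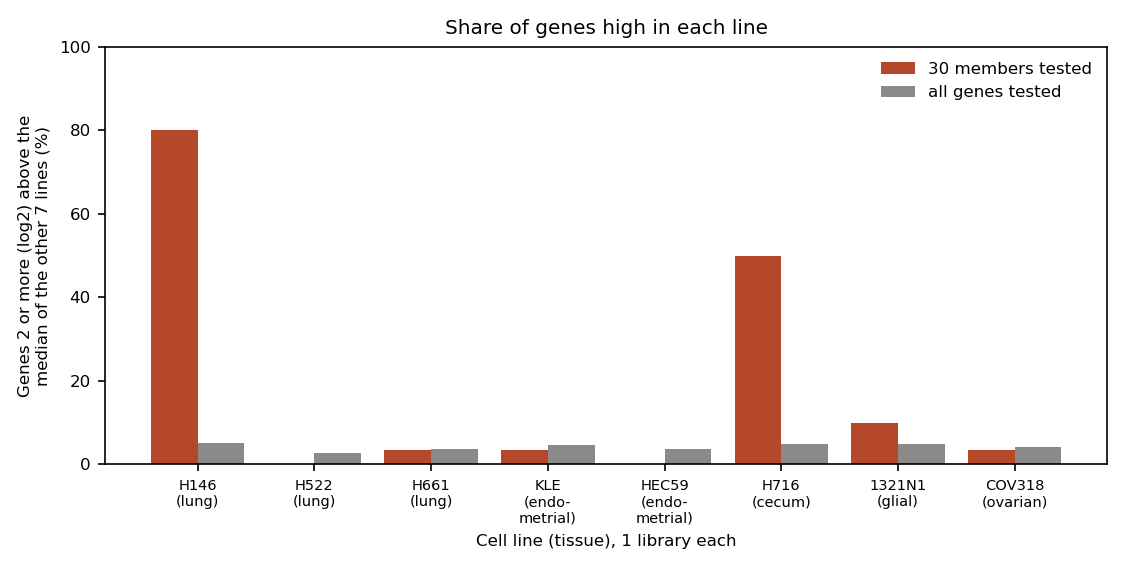
Share of genes (per cent) whose log2(FPKM + 1) was 2 or more above the median of the other 7 lines, for the 30 members that passed the filter (red) and all genes that passed (grey), by cell line with 1 library each. The 24 high members of H146 and 15 of H716 stand well above the grey bars of 5.04% and 4.76%.

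The low values of the FPKM move in steps of whole reads. Only splits into equal sets of 4 lines were tried, and that with the most alike steps within sets was kept. It put H522, H661, KLE and H716 in one set and 1321N1, HEC59, COV318 and H146 in another. Likeness of steps within sets exceeded that between sets by 9.37 percentage points, against 2.82 for the next split. H146 and H716 are thus in different sets. H146 was the highest of the 4 lines of its set for 34 members, 29 of which passed the filter (21.8% of genes tested). H716 was the highest of its 4 for 26, 25 of which passed (25.5% of genes tested). Many members pass the filter through these lines themselves, so the shares describe the members only.

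For 27 of the members RefSeq gave 35 promoters of 300 bases (GRCh38.p14, from position -250 to 50 bases after the start site). CHGB, SCG2, SNAP25, RIMS2, PTPRN2, SLC18A1, TH and NCAM1 had no entry in the table used. Promoters were searched for the cAMP response element TGACGTCA, which reads the same on both strands and is bound by CREB factors. It occurred in 5 of the 35 member promoters, those of CHGA, VGF, PCSK1, SLC18A2 and SYN1, and in 1.85% of 35116 promoters of the same length. Promoters of one gene are not separate units, as the 35 come from 27 genes. Enrichment of the element was not tested. The 150 bases before the start site are shown for the first 4 and positions -250 to -101 for SYN1, 5′ to 3′ on the gene's strand, because these are the members with that element; capitals mark it.
CHGA: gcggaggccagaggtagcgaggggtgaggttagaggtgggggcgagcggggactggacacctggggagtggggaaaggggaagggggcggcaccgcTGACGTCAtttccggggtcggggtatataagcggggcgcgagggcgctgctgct
VGF: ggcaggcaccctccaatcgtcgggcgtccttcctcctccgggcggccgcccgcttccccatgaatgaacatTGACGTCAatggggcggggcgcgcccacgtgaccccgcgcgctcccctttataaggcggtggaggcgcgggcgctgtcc
PCSK1: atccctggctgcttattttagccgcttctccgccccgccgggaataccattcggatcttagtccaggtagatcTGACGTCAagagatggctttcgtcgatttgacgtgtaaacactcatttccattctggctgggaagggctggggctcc
SLC18A2: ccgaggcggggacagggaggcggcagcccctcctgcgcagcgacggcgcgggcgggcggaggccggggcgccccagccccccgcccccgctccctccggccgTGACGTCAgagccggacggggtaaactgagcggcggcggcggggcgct
SYN1: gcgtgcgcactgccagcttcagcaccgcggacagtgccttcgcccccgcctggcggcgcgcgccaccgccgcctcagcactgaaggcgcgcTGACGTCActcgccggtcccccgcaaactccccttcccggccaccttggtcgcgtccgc
The windows lie at chr14:92923000-92923149 (plus strand), chr7:101165570-101165719 (minus), chr5:96433249-96433398 (minus), chr10:117240964-117241113 (plus) and chrX:47619958-47620107 (minus). The element began at position -54 in CHGA, -79 in VGF, -77 in PCSK1, -48 in SLC18A2 and -159 in SYN1. The 5 genes did not share one pattern of level. CHGA, VGF and PCSK1 were highest in H716, and SLC18A2 and SYN1 in H146.

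The repressor REST, which silences neuronal genes in other cells, was at an FPKM of 0.0375 in H146, against 22.9 in H716 and 27.1 to 53.6 in the other lines. Letters that match an element do not show binding, and a part of REST or of CREB factors in the levels was not tested.

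Granin levels were led by H716. CHGA and CHGB, the acidic proteins of the granule core, are described together with SCG3, which brings them to the granule membrane. CHGA was at 7.59 in H146 and 15.4 in H716, with at most 0.371 (H522) in any other line. CHGB stood at 12.8 in H146 and 55.6 in H716 and reached at most 0.701 (H661) elsewhere. SCG3 was at 27.4 in H146, 68.3 in H716 and 1.11 in H661, and below 0.4 in the remaining lines. These 3 genes therefore separated H146 and H716 from every other line by wide margins.

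SCG2, the precursor of secretoneurin, had a broader range. Its level was 87.1 in H146, 54.8 in H716, 18.2 in 1321N1, 3.28 in COV318, 1.496 in HEC59, 0.420 in KLE, 0.284 in H661 and 0.244 in H522. The astrocytoma line thus had SCG2 without CHGA or CHGB, both of which were listed at 0 there. VGF, the precursor of several neuropeptides, was at 46.4 in H716 and at most 0.615 in any other line, the value of H146. SCG5, a chaperone of the convertase PCSK2, was low throughout: 2.94 in H716, 1.81 in KLE, 1.78 in COV318, 1.23 in 1321N1, 0.652 in H522, 0.206 in HEC59, 0.144 in H661, and listed at 0 in H146. It was the single member for which H146 did not lie above each of the 6 lines other than H716. Of the 6 granins, 4 were high in H146 and 5 in H716.

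The prohormone convertases differed between H146 and H716. PCSK1, which makes the first cuts in many precursors, was at 4.59 in H146 and 125 in H716, with at most 0.881 (1321N1) elsewhere. PCSK2, which cuts later and at further sites, was at 26.6 in H146 and 3.35 in H716, with at most 0.0913 (COV318) elsewhere. PCSK1N encodes proSAAS, an inhibitor of PCSK1, and had yet another order. Its level was 17.5 in H146, 11.6 in KLE, 7.65 in H522, 2.002 in HEC59, 1.67 in H661, 0.243 in 1321N1, 0.101 in H716 and listed at 0 in COV318. H716 thus had the most PCSK1 and little PCSK1N, and H146 had the most PCSK2 with its chaperone SCG5 listed at 0.

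CPE, the carboxypeptidase that trims basic residues left by the convertases, was at 25.7 in H146 and 115 in H716. It was also detected in 1321N1 at 4.63 and in KLE at 1.73, and was at most 0.367 in the remaining lines. PAM, which amidates the ends of finished peptides, was not limited to these lines. It stood at 59.2 in H146, 44.7 in 1321N1, 35.6 in COV318, 15.1 in H716, 15.0 in KLE, 6.20 in H661, 0.558 in HEC59 and 0.108 in H522. PAM was therefore higher in the glial and ovarian lines than in H716.

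Vesicle and release genes were led by H146. All 14 were detected there and 10 were high, against 13 detected and 6 high in H716. SYT1, the fast calcium sensor of release, was at 101 in H146, 67.2 in H716, 19.0 in H661, 14.03 in COV318, 5.67 in 1321N1, 4.38 in KLE, 1.69 in HEC59 and 0.103 in H522. SYT4, a synaptotagmin of dense-core vesicles, was at 78.0 in H146 and 16.4 in H716, with at most 0.242 elsewhere. SYT11, a synaptotagmin that does not bind calcium, was at 30.3 in H146, 14.5 in COV318, 13.03 in H716, 12.5 in 1321N1, 7.49 in H661, 1.66 in H522, 1.11 in KLE and 0.124 in HEC59. SYT4 thus marked H146 and H716, while SYT1 and SYT11 were shared with other lines. SYT5 was low throughout, from 0.248 in 1321N1 to 2.47 in H146, and was detected in 3 lines.

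The SNARE genes did not move as a block. SNAP25, a SNARE of the cell membrane, was at 67.6 in H146, 17.5 in H716 and 2.79 in COV318, and at most 0.347 elsewhere. STX1A, its membrane partner, was at 4.37 in H146 and 26.4 in H716 and from 0.270 to 1.53 elsewhere. VAMP2, the SNARE of the vesicle, was present in every line, at 12.3 in H146, 4.30 in H716 and 3.09 to 6.93 elsewhere. H716 thus had the highest STX1A, H146 the highest SNAP25, and the VAMP2 of H716 lay within the range of the remaining lines.

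Priming and docking genes were higher in H146, with UNC13A as the exception. UNC13A, which prepares vesicles for fusion, was at 6.66 in H146 and 14.2 in H716, with at most 0.191 elsewhere. CADPS, which primes dense-core vesicles, was at 23.7 in H146, 2.27 in H716 and 1.02 in HEC59, and at most 0.0146 in the remaining lines. RIMS2, an organiser of release sites, was at 43.9 in H146, 9.81 in H661, 4.28 in KLE, 4.17 in H522, 0.984 in HEC59, 0.297 in COV318, 0.166 in 1321N1 and 0.128 in H716. H716 had the lowest RIMS2 of the 8 lines. RAB3A, a vesicle GTPase, was at 10.9 in H146 and 3.83 in H716 and from 0.484 to 2.53 elsewhere.

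SYP and SYN1, proteins of the synaptic vesicle surface, stood at moderate levels. SYP was at 6.00 in H146, 6.67 in H716 and 2.37 in H522, and at most 0.594 elsewhere. SYN1 was at 5.47 in H146 and 2.94 in H716, with at most 0.702 elsewhere. SCGN, a calcium-binding protein of neuroendocrine cells, was at 24.6 in H146 and 1.47 in H716, and it was listed at 0 in 5 of the other lines. SYP, a common diagnostic marker, ranked above 40.3% of the detected genes of H716, whereas SCG2 ranked above 95.6% of those of H146.

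The granule membrane proteins PTPRN and PTPRN2, autoantigens of type 1 diabetes, were highest in H146. PTPRN was at 4.64 in H146 and 0.0830 in H716, and reached 1.05 in H661. PTPRN2 was at 8.36 in H146 and 1.402 in H716, with at most 0.228 elsewhere. PTPRN2 was listed at 0 in the other lung lines, H522 and H661.

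Of the monoamine genes, 4 of 5 were detected in H146 and 2 of 5 in H716. DDC, the decarboxylase that makes dopamine and serotonin, was at 194 in H146 and 49.7 in H716, with at most 0.304 elsewhere, and it ranked above 98.1% of the detected genes of H146. SLC18A1, a transporter that loads monoamines into granules, was at 7.19 in H146 and was listed at 0 in every other line but HEC59 (0.0570). Its relative SLC18A2 was detected in all 8 lines, at 20.2 in H146, 6.70 in HEC59, 5.02 in COV318, 4.98 in H716 and 1.53 to 2.94 in the rest. The 2 members that act ahead of DDC were low. TH, which starts dopamine synthesis, reached 0.144 in H146 at most, and TPH1, which starts serotonin synthesis, reached 1.004 in H146 and was listed at 0 in H716. TPH2, the other tryptophan hydroxylase and not among the 35, was at 2.27 in H146 and 2.19 in H716, with at most 0.139 elsewhere; it is named after its values were seen.

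GRP, the gastrin-releasing peptide, reached 4.86 in H146 and 1.06 in KLE, with at most 0.107 in any other line. CALCA, the precursor of calcitonin and its related peptide, reached 0.451 in H146 and 0.186 in H522, and neither value counts as detected. NCAM1, a cell adhesion molecule used to identify neuroendocrine tumours, was at 84.5 in H716, 52.3 in H146, 40.7 in COV318, 23.5 in 1321N1, 3.67 in KLE, 0.497 in HEC59, 0.276 in H661 and listed at 0 in H522. COV318 and 1321N1 thus had NCAM1 while CHGA, CHGB and SYP were below detection in both lines.

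Set against H716, H146 had 9 members that were 2 or more higher on the log2(FPKM + 1) scale (5.6% of genes tested) and 5 that were 2 or more lower (6.39% of genes tested). Higher in H146 were RIMS2, PCSK1N, SCGN, SLC18A1, CADPS, PCSK2, GRP, PTPRN and SYT4, and lower were VGF, PCSK1, STX1A, CPE and CHGB. The largest differences were 5.32 for RIMS2, 4.07 for PCSK1N, -4.49 for PCSK1 and -4.87 for VGF. In FPKM, PCSK2 was 7.94 times as high in H146 as in H716, and PCSK1 was 27.1 times as high in H716 as in H146. By class, the median difference was -1.63 for the 6 granins, 1.23 for the 14 vesicle and release genes and 1.83 for the 5 monoamine genes. Over all 35 members it was 1.003, and over all genes tested -0.07. Scaling to a common upper quartile shifted the median of all genes by 0.17 and gave 14 members higher and 3 lower. Unscaled, PTPRN2, DDC, PAM, SNAP25 and SLC18A2 lay just under the limit, at 1.83 to 1.96. Each line has 1 library, so these differences have no test.

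**Figure D3:**
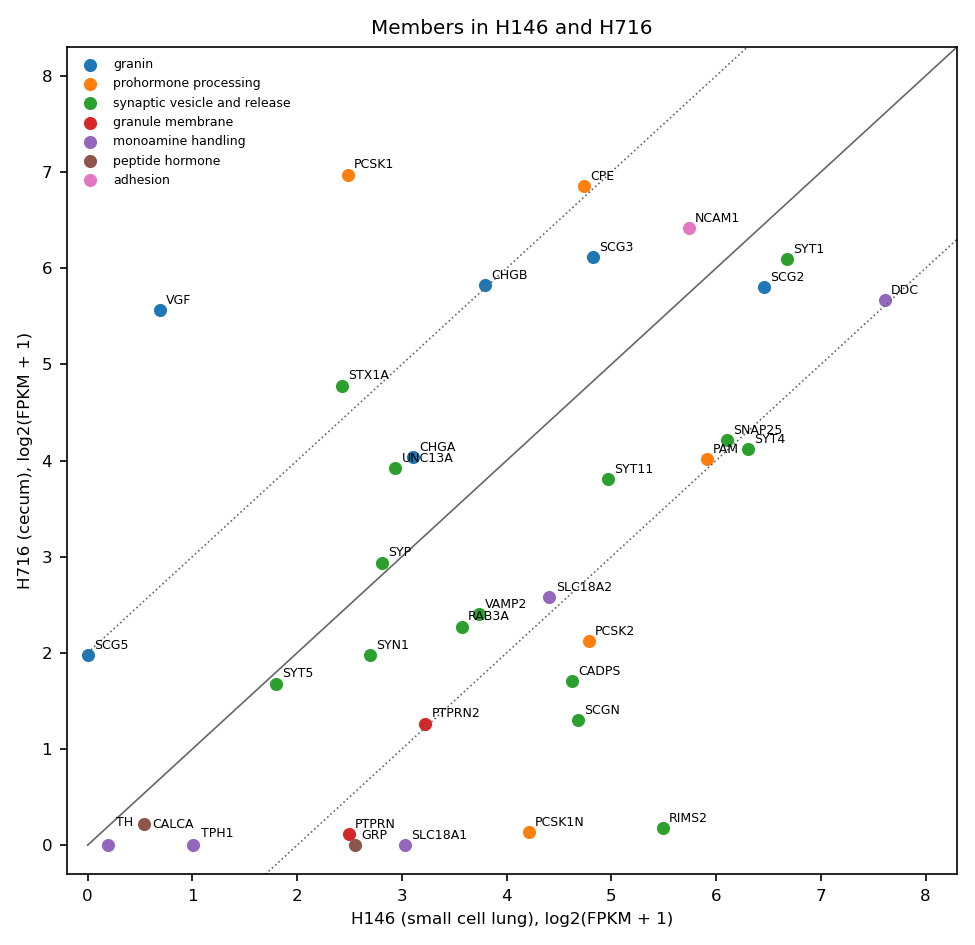
Level of each member in H146 (horizontal axis) and in H716 (vertical axis) as log2(FPKM + 1), 1 library each, coloured by role. The solid line marks equal levels and the dotted lines a difference of 2; VGF and PCSK1 lie far above the upper line and RIMS2 and PCSK1N far below the lower one.

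A list of 26 other hormone and neuropeptide precursors, of which 8 passed the filter, was also read. Its mean log2(FPKM + 1) was 0.94 in H716 and 0.90 in H146, and at most 0.63 in any other line (COV318). Its 3 most abundant genes, GCG, NTS and SST, were highest in H716 or H146. Detected were 5 of the 26 in each of H716, H146 and KLE, against 75.2%, 79.7% and 80.3% of genes tested. GCG, which encodes proglucagon, was at 1104 in H716, 9.70 in H661 and 0.948 in H522, and was listed at 0 in the other 5 lines, H146 among them. SST, the somatostatin precursor, was at 475 in H716, 36.4 in COV318 and 3.01 in KLE, and listed at 0 in H146. NTS, the neurotensin precursor, was at 971 in H146, 26.0 in 1321N1, 2.05 in HEC59 and 1.44 in H716. PENK, the enkephalin precursor, was at 20.3 in H146 and at most 0.0361 elsewhere. H716 and H146 thus each had a pair of abundant precursors that the other had at 1.44 or less. NMU, neuromedin U, was highest in KLE and COV318, at 43.7 and 43.3, and GAL, galanin, in H661 at 6.47. High by the rule above were 3 of the 26 in H146 and 2 in H716, where 5.04% and 4.76% of genes tested were high. The count was 2 in H661 (3.58%), 2 in COV318 (4.12%), 1 in KLE, 1 in 1321N1 and 0 in H522 and HEC59.

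**Figure D4:**
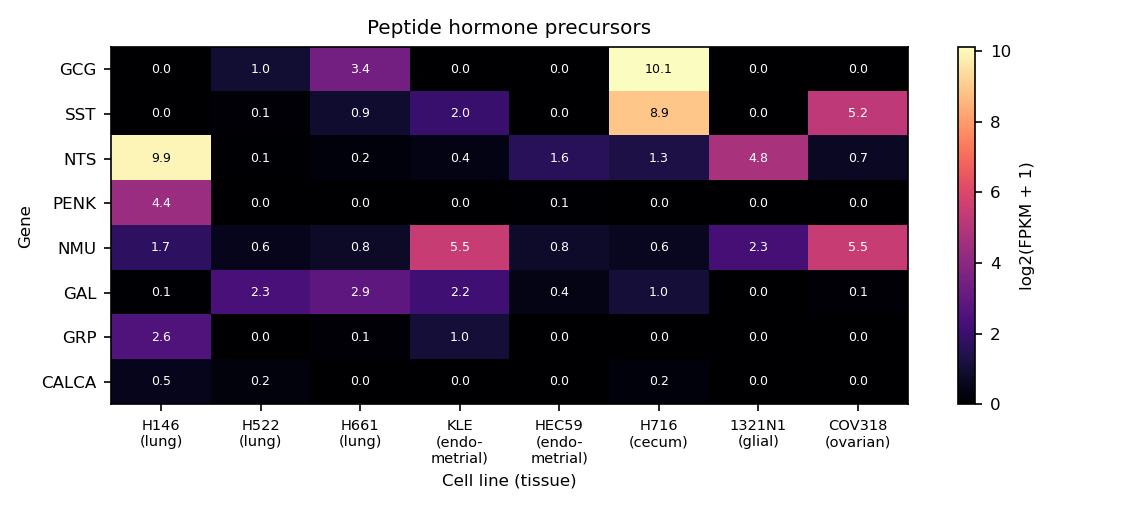
Level of 8 peptide precursors (rows) in each cell line (columns) as log2(FPKM + 1), printed in each cell. GCG and SST are highest in H716, NTS and PENK in H146, and NMU in KLE and COV318.

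A list of 44 further vesicle and release genes, of which 28 passed the filter, was read in the same way. H146 had 28 of the 44 detected and 13 high, against 79.7% and 5.04% of genes tested. H716 had 20 detected and 8 high, against 75.2% and 4.76% of genes tested. In the other lines 12 to 17 were detected and at most 1 was high. RAB3C, a vesicle GTPase related to RAB3A, was at 27.8 in H146 and 42.2 in H716, with at most 0.809 elsewhere, and RIMBP2, a partner of RIM proteins, at 9.09 and 8.85 and at most 0.127 elsewhere. CADPS2, SV2B and RAB3B were led by H146, at 42.3, 19.9 and 43.7, against 2.26, 0 and 0.366 in H716. RAB27B, a GTPase of secretory granules, was at 35.7 in H716 and 6.90 in 1321N1 and listed at 0 in H146. None of these 44 genes belongs to the 35, but the list was chosen with earlier results of these data known. It is thus no independent support for the pattern of the 35. Here and for the peptide precursors above, counts include genes that did not pass the filter, such as SV2B and PENK. The percentages beside them cover only genes that passed.

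The neuroendocrine transcription factor INSM1 was at 81.3 in H146 and 5.27 in H716, with at most 0.236 in any other line. NEUROD1, also a factor of neuroendocrine cells, was at most 0.507 in any line and listed at 0 in H716.

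By tissue, no member passed the test. Lung lines were set against the 5 lines of other tissues on the log2(FPKM + 1) scale with limma, and 0 of 30 members passed at an adjusted p of 0.05, as did 0.0256% of all genes tested. At an unadjusted p under 0.05 there was 1 member, RIMS2, and 5.94% of genes. RIMS2 was at 43.9, 4.17 and 9.81 in H146, H522 and H661 and at most 4.28 in the other lines, and its ranges overlapped through H522 and KLE. On that scale RIMS2 averaged 3.77 ± 1.59 (SD, n = 3) in lung and 0.83 ± 0.94 (SD, n = 5) in other tissues, a difference of 2.93 (SE 0.76, limma adjusted p = 0.474). Lines of a tissue are different tumours, so the spread is between tumours and not between repeat cultures.

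H146 decided the direction of the lung comparison. With all 3 lung lines, 23 of the 30 members had a higher mean in the lung lines (median difference 0.62), against 48.4% of genes tested (median -0.02). Without H146, 18 members passed the filter, 4 had a higher mean in the lung lines and the median difference was -0.53, against 52.5% and 0.04 for all genes. These 18 are a smaller set than the 30, and the other lines still include H716. The negative median therefore does not show that H522 and H661 lie below the lines other than H716. H522 and H661 had 8 and 11 of the 35 members detected, which lay within the range of the lines that are neither H146 nor H716. PTPRN (1.07, SE 0.48) and PCSK1N (1.77, SE 0.93) had the next largest positive differences for their error, and SCG5 the next negative one (-0.97, SE 0.43), with limma adjusted p of 0.821, 0.854 and 0.821. PTPRN did not pass the filter without H146 and has no value there.

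**Figure D5:**
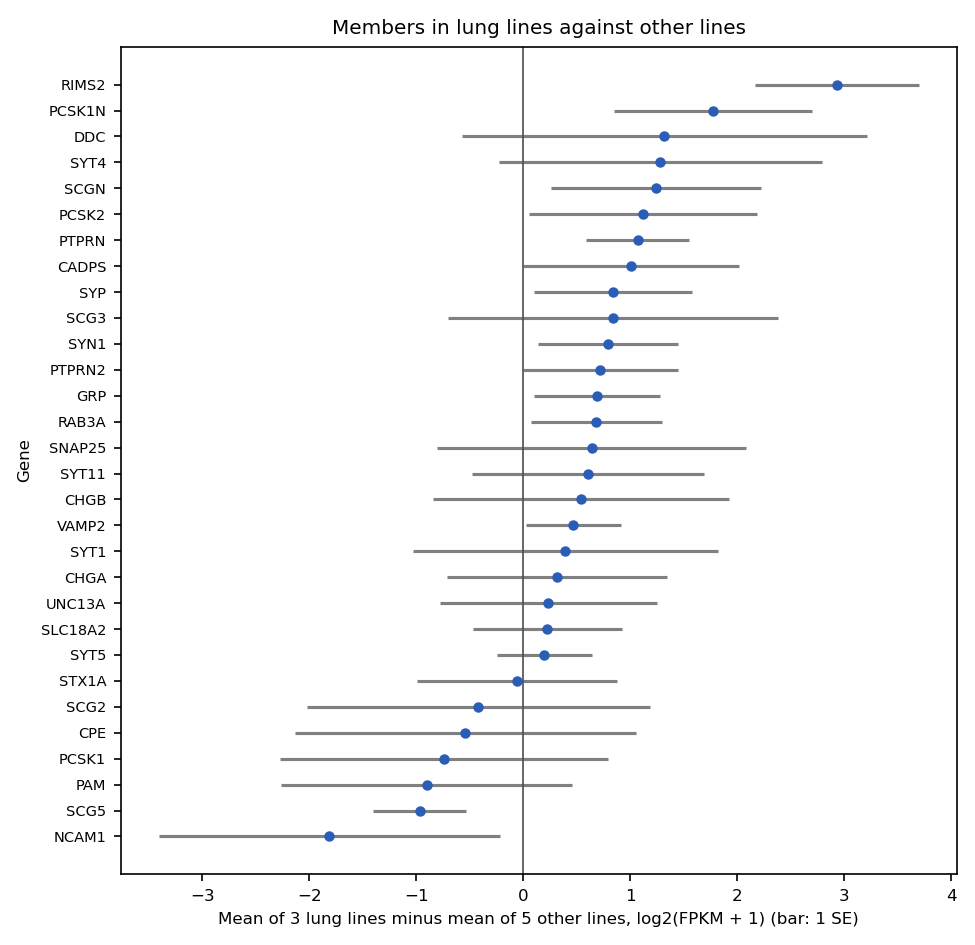
Difference between the mean of the 3 lung lines and the mean of the 5 other lines in log2(FPKM + 1) (horizontal axis) for the 30 members that passed the filter (rows); points are the limma estimates and bars 1 standard error. RIMS2 lies farthest to the right at 2.93, and none of the differences passed after adjustment over all genes.

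The endometrial lines had 0 of 30 members past the threshold against the other 6 lines (limma, 0.00639% of genes tested), and 1 member, SYT11, at an unadjusted p under 0.05 (4.82% of genes). SYT11 was at 1.11 in KLE and 0.124 in HEC59, below every other line, whose lowest value was 1.66 in H522. Its mean was 0.62 ± 0.64 (SD, n = 2) in the endometrial lines and 3.50 ± 1.19 (SD, n = 6) in the others, a difference of -2.88 (SE 0.81, limma adjusted p = 0.686). A higher mean in the endometrial lines was found for 3 of 30 members (median -0.98), against 42.9% of genes tested (median -0.11). The other 6 lines include H146 and H716. Without H146, 6 of the 18 members that then passed the filter were higher (median -0.75), against 40.8% of genes (median -0.13). Without H716 it was 3 of 20 members (median -0.61), against 42.8% of genes (median -0.10). With all lines kept, SYT11 was the single member whose groups did not overlap. How many of all genes tested separate these groups was not counted, so the separation cannot be called unusual.

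Between lung and endometrial lines 0 of 30 members passed (limma, 0.00639% of genes tested), and 0 had an unadjusted p under 0.05 (5.54% of genes). The lung mean was higher for 29 of 30 members, with a median of 0.995, against 54.0% of genes and 0.07. Without H146 it was higher for 7 of the 18 members that then passed the filter, with a median of -0.31. SYT11 (2.53, SE 1.06) and RIMS2 (2.07, SE 1.02) had the lowest p-values, with limma adjusted p of 0.909 for both. The 3 tissue comparisons share lines, so they are not independent of each other.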

How the data were processed

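RNA was sequenced in 8 cell lines with 1 library each. The authors deposited FPKM per Ensembl gene for each line, per the file headers. CASAVA 1.4, TopHat2 2.0.8, SAMtools 1.0 and build GRCh37 are named in the submitters' processing notes. Not given in the sources used here are the program that estimated FPKM, its annotation and any strand setting. Reads of overlapping genes may therefore be shared, and FPKM near 0 rests on few fragments.

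The members and lists were chosen with earlier results of these data known. Where a symbol had several identifiers, that with the highest mean was used. All comparisons used log2(FPKM + 1); on this scale differences of low genes come out too small. The filter kept 15650 genes for which 2 or more lines had an FPKM of at least 1. Moderated tests used limma (version 3.58.1, R 4.3.3) with a trended prior and Benjamini-Hochberg adjustment over all genes kept, after a check on simulated data. That check planted large changes in genes of low spread, so it does not show how often changes of the members would be found. VGF, SLC18A1, TH, TPH1 and CALCA did not pass this filter and have no test. Numbers of replicates only name the lines. All members could be named; of other lists, up to 6 genes with the largest difference between the highest line and the median of the rest, at an FPKM of 5 or more, and any of the regulators listed with REST. Tissue markers and TPH2 fall outside this rule and were named after their values were seen. Some genes of these lists are not reported here. Names of genes are those of the files, and promoters come from RefSeq on GRCh38.p14, whose coordinates were not joined to the files.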

Additional observations from a re-analysis of the deposited data

How the results depend on the processing

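In the tissue comparisons 0 members were called under every one of the 16 alternatives. These include leaving out each line (0 to 0) and the set of lines with like steps in the low values as a term. No named difference turned its direction where it could be fitted. PTPRN did not pass the filter, and has no value, without H146, without H661 or at FPKM 5, and SCG5 has none at FPKM 5. RIMS2 in the lung comparison ranged from 1.65 to 4.25 (adjusted p 0.371 to 0.845) and SYT11 in the endometrial one from -4.26 to -1.53 (adjusted p 0.335 to 0.998). No paired analysis was possible because each line has 1 library and the replicate numbers follow accession order.

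Counts of high members moved as follows. With a pseudocount of 5 the count was 12 in H146 and 12 in H716, which ends the lead of H146, and 0 in 1321N1, H661 and KLE, and 3 members were higher and 2 lower in H146 than in H716. With a pseudocount of 0.1 it was 3 in H522, H661 and KLE, 2 in COV318 and 1 in HEC59. With a filter of FPKM 5 in at least 2 lines it was 15 in H146, and 3 members were higher and 2 lower in H146 than in H716, since only 18 members pass. Upper-quartile scaling gave 14 higher and 3 lower. Leaving out single lines gave 25 to 27 high members in H146, 16 to 16 in H716, 1 to 4 in 1321N1, 0 to 1 in COV318, H522 and H661, 1 to 1 in KLE and 0 to 0 in HEC59. Restricting to members that passed the filter, an alternative chosen after seeing the data, moved no count by over 1.5 times. At an FPKM of 5, detected members numbered 25 in H146, 17 in H716, 5 in H661, 1321N1 and COV318, 2 in KLE and HEC59 and 1 in H522. Without counts, depth sets an unknown floor under low values.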

Other observations

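Genes that handle transmitters outside the 35 also differed between H146 and H716, and these values were not tested. MAOA and MAOB, which break down monoamines, were both listed at 0 in H146, against 37.9 and 34.1 in H716. MAOA was at most 2.89 in any other line, and MAOB at most 0.698. GCH1, which makes a cofactor of monoamine synthesis, was at 22.8 in H146 and at most 4.97 elsewhere. GAD1 and GAD2, which make GABA, were at 3.48 and 5.01 in H146 and at 7.10 and 0.896 in H716, and GAD1 was highest in HEC59 at 8.98.

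Among 10 further processing enzymes, the highest line varied. QPCT, which closes the ends of some peptide hormones, was at 15.7 in H146 and at most 2.08 elsewhere. PCSK6, a relative of the convertases, was at 10.3 in H716 and at most 2.55 elsewhere. CPM, a carboxypeptidase of the cell surface, was highest in HEC59 at 16.1, and CPZ in 1321N1 at 6.81. PCSK7 was at 31.6 in COV318 and 28.5 in KLE, against 3.87 to 7.37 in the other lines.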
